A study of Mus musculus with 6 samples.

Results

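The genes described here are 33 mouse genes that are known to be induced when oxygen is low and that lie outside the core glycolytic enzymes. Membership was fixed by gene symbol, with earlier results of these data already known, and all 33 symbols were found among the 24421 rows of the count table. RNA was sequenced from ILC2, group 2 innate lymphoid cells, which are tissue lymphocytes that lack antigen receptors and make type 2 cytokines. The cells were sorted by surface markers from the brains of C57BL/6 mice and then grown for 2 weeks with IL7, IL2, IL33 and SCF (stem cell factor) in medium with 20% FCS (fetal calf serum), in both groups alike. The aged group came from mice of 20-22 months and the young group from mice of 2-3 months, with 3 libraries each. No label links a library to an animal or a culture dish, and none gives the oxygen level or cell density of the cultures. Differences are therefore set against the spread between libraries, which may be technical.

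Total counts were 17314428 to 17796301 in aged and 16477157 to 20804291 in young libraries. ILC2 markers were abundant, with the 12 listed genes summing to 6302 to 8393 CPM (CPM are a gene's counts relative to the library total, here scaled by TMM, edgeR's trimmed mean of M-values) in aged and 9402 to 10825 CPM in young libraries. Il5 alone made up 49.9% of that sum. Of the 12 markers, 6 were called lower in aged libraries (Gata3, Il1rl1, Il5, Klrg1, Il2ra and Icos), 1 was called higher (Thy1), 4 did not pass (Il13, Il7r, Rora and Areg) and Kit, with 0 counts in each aged library, was too low to be tested. Gata3, the lineage factor of ILC2, averaged 191 ± 24.0 CPM in aged and 412 ± 52.8 CPM in young libraries, Thy1 averaged 143 ± 10.6 CPM in aged and 64.9 ± 16.3 CPM in young libraries, and Klrg1, an inhibitory receptor of activated ILC2, had 0, 0.471 and 3.87 CPM in aged libraries 1 to 3, against 76.5, 82.5 and 101 CPM in young libraries 1 to 3. Among microglia and macrophage markers, Csf1r and C1qa had 0 counts throughout, and the list summed to 105 to 155 CPM in aged and 49.9 to 61.4 CPM in young libraries. Tmem119, a defining gene of microglia, had 49.5, 67.5 and 36.2 CPM in aged libraries 1 to 3, against 0.104, 1.91 and 0 CPM in young libraries 1 to 3. Of the 10 genes in the list, Tmem119 and P2ry12 were called higher, Adgre1 was called lower, 4 did not pass and 3 were too low to be tested. P2ry12 averaged 15.5 ± 4.78 CPM in aged and 2.49 ± 2.62 CPM in young libraries, Adgre1 averaged 0 CPM in aged and 2.60 CPM in young libraries, and Cx3cr1, which did not pass, averaged 0.466 CPM in aged and 3.76 CPM in young libraries. The endothelial list came down to Pecam1 alone, with its other 5 genes at 0. Of the fibroblast and pericyte markers, Col3a1, Pdgfra and Rgs5 were at 0, and the list summed to 1.55 to 10.9 CPM in aged and 13.7 to 17.8 CPM in young libraries. Of its 8 genes, Lum was called higher, Dcn and Pdgfrb were called lower and 5 were too low to be tested. Lum averaged 6.46 CPM in aged and 0 CPM in young libraries. Dcn averaged 0 CPM in aged and 11.8 CPM in young libraries, and Pdgfrb averaged 0.0224 CPM in aged and 4.17 CPM in young libraries. Defining genes of T cells (Cd3e, Cd4, Cd8a), B cells (Ms4a1, Cd79a), NK cells and ILC1 (Eomes, Tbx21, Ncr1) and astrocytes and neurons (Aqp4, Rbfox3) were at 0 in the 6 libraries. Other genes of these lists held counts. In the T cell list, Cd3g made up 83.7% of the sum and averaged 8.48 CPM in aged and 9.48 CPM in young libraries. Cd3d reached at most 3.84 CPM, in aged library 1, and neither Cd3g nor Cd3d passed. Dendritic cell markers summed to 309.8 to 354 CPM in aged and 64.8 to 87.8 CPM in young libraries, with Batf3 making up 96.2% of the sum. Mast cell and basophil markers summed to 188 to 325 CPM in aged and 230.3 to 281 CPM in young libraries, and ILC3 markers to 4.38 to 13.7 CPM in aged and 0 to 3.34 CPM in young libraries.

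Cells sense oxygen through HIF, a transcription factor made of an oxygen-labile alpha subunit such as HIF-1 alpha and its stable partner ARNT. With oxygen present, prolyl hydroxylases encoded by the Egln genes mark the alpha subunit, and the VHL protein directs it to destruction. When oxygen falls, the subunit persists and HIF binds short DNA cores near genes that limit oxygen use, export acid, store glycogen and lipid, and signal to blood vessels. In lymphocytes HIF-1 alpha can also be raised at normal oxygen by cytokine and mTOR signals, and in mice the VHL protein has been linked to ILC2 maturation.

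Hypoxia-induced genes were mostly higher in cultured aged ILC2 than in cultured young ILC2. Hilpda, Ankrd37 and Stc2 stood more than 10-fold higher by the ratio of means, at 11.9, 12.9 and 12.5 times the young level. Among the other genes that passed, Vegfa, Higd1a, P4ha2, Ndrg1, Pdk1 and Slc16a3 were 5.59 to 6.88 times as high. Of the 33 genes, 31 passed the count filter and were tested. Among these, 18 (58.1%) were higher in aged libraries by edgeR's quasi-likelihood test at an adjusted p under 0.05. Over all 11805 genes tested, 11.2% were called higher. In DESeq2 and limma-voom 20 of the 31 were called higher, against 13.8% and 12.1% of all genes. No hypoxia-induced gene was called lower in edgeR, DESeq2 or limma-voom, nor did any fall at an unadjusted p under 0.05 (0 in each), while 8.14% of all tested genes were called lower in edgeR, 10.3% in DESeq2 and 8.45% in limma-voom. Counted without a test, 20 of the 31 had all 3 aged libraries above all 3 young ones and 0 had them below, against 19.3% and 18.8% of all tested genes. The median log2 change of the 31 genes was 1.46, and that of all tested genes was -0.10. In bulk RNA a larger share of expressing cells cannot be told apart from more RNA per cell.

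The 33 genes together took 0.948%, 0.947% and 0.758% of all counts in aged libraries 1 to 3, against 0.289%, 0.288% and 0.280% in young libraries 1 to 3. Aged library 3 was the lowest of its group for 22 of the 31 tested genes, and without it 17 of the 18 calls were kept. Jmjd6 was lost, and Adm entered the test there and was called higher. Among the young libraries the lowest place was spread more evenly, over 10, 9 and 12 genes.

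**Figure D1:**
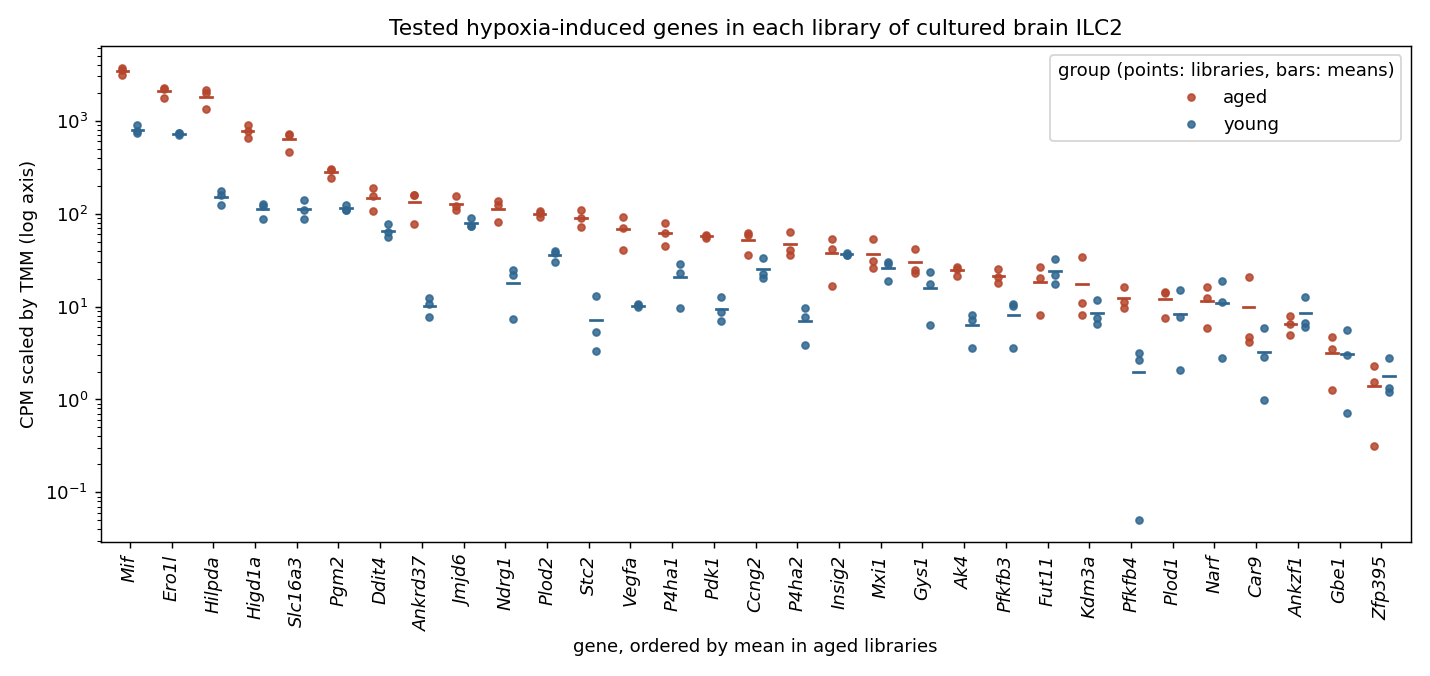
Level of each tested hypoxia-induced gene in CPM scaled by TMM (log axis), with the 3 aged libraries left of the 3 young ones and short bars at the group means. Mif, Ero1l and Hilpda were the most abundant by this scale in aged libraries, and 20 of the 31 genes had no overlap between groups.

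The promoters of these genes can be read for the letters that HIF binds. RefSeq promoter windows on GRCm38.p6, from 250 bases before to 50 bases after each annotated start, were matched by symbol for 29 of the 33 genes, with Ero1l found under its newer name Ero1a. Ndrg1, Plod2 and Zfp395 had no window, and Pgm2 was left out because its symbol has been used for 2 loci. The search took the core ACGTG or GCGTG on either strand. Overlapping matches were counted separately, so that the palindrome CACGTG, which is also an E-box, counts as 2 matches. At least 1 core stood in a window of 15 of the 15 genes called higher and of 10 of the 12 tested genes that did not pass. Among 9011 tested genes with a window, 68.4% held a core, and 43.8% of all 32841 windows did. The core ACGTG was present for 12 of the 15 genes called higher, for 4 of the 12 that did not pass and for 30.0% of tested genes. Some genes have several windows, which gives them more chances of a match. With the first listed window alone, a core was found for 14 of 15 genes called higher, 8 of 12 that did not pass and 64.4% of tested genes. The core ACGTG was then found for 9 of 15, 3 of 12 and 26.7%. These matches are a description of letters, since no binding was measured.

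The windows of the 5 genes with the largest fitted rises are shown because these genes changed most, followed by Gys1 and Gbe1, the tested genes whose windows hold no core. All are written 5′ to 3′ on the gene's strand, with cores of either strand in capitals. Ankrd37 lies at chr8:45999801-46000100, minus strand, Stc2 at chr11:31370012-31370311, minus strand, Hilpda at chr6:29272376-29272675, plus strand, Higd1a at chr9:121857747-121858046, minus strand, and P4ha2 at chr11:54100674-54100973, plus strand. The window of Gys1 is chr7:45434589-45434888, plus strand and that of Gbe1 is chr16:70313699-70313998, plus strand. For Hilpda the second of its 2 overlapping windows is shown, which holds 3 cores, while the first holds 1.
Ankrd37: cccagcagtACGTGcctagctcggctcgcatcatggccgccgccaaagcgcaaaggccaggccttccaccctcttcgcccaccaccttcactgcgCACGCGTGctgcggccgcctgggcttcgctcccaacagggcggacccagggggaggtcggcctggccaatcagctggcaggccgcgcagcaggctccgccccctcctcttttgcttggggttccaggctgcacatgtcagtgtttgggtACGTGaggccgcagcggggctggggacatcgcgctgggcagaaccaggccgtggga
Stc2: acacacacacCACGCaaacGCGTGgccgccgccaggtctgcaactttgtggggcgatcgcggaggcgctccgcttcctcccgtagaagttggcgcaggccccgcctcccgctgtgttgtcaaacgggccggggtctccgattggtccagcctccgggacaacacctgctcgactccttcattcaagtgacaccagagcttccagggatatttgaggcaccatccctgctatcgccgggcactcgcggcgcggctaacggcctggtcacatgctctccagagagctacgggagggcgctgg
Hilpda: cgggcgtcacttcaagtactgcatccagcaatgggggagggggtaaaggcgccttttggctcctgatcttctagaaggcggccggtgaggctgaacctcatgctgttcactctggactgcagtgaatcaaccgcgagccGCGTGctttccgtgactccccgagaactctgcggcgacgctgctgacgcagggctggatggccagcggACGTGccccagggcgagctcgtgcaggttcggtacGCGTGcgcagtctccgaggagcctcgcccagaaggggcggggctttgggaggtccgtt
Higd1a: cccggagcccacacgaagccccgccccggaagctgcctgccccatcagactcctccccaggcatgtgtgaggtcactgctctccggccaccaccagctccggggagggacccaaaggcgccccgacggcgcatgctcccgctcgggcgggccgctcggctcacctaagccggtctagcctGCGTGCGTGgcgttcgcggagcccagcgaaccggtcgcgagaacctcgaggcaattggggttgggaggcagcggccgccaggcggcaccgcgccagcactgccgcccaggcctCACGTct
P4ha2: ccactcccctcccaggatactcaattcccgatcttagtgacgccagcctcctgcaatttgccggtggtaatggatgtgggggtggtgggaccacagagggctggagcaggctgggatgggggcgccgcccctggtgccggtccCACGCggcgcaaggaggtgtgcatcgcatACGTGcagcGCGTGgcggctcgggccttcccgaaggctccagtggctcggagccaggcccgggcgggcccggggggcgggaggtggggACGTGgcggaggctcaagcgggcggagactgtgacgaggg
Gys1: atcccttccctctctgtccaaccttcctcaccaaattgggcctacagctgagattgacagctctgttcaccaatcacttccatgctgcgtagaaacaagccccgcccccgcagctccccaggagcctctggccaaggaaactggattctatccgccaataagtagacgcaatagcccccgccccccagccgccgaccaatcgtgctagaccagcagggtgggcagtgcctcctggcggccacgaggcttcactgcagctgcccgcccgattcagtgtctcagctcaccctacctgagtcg
Gbe1: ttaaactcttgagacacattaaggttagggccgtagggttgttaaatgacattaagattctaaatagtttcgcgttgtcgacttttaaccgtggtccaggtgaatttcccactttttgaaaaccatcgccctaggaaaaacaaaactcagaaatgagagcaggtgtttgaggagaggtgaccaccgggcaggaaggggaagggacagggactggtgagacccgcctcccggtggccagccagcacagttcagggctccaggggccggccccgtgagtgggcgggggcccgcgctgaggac

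**Figure D2:**
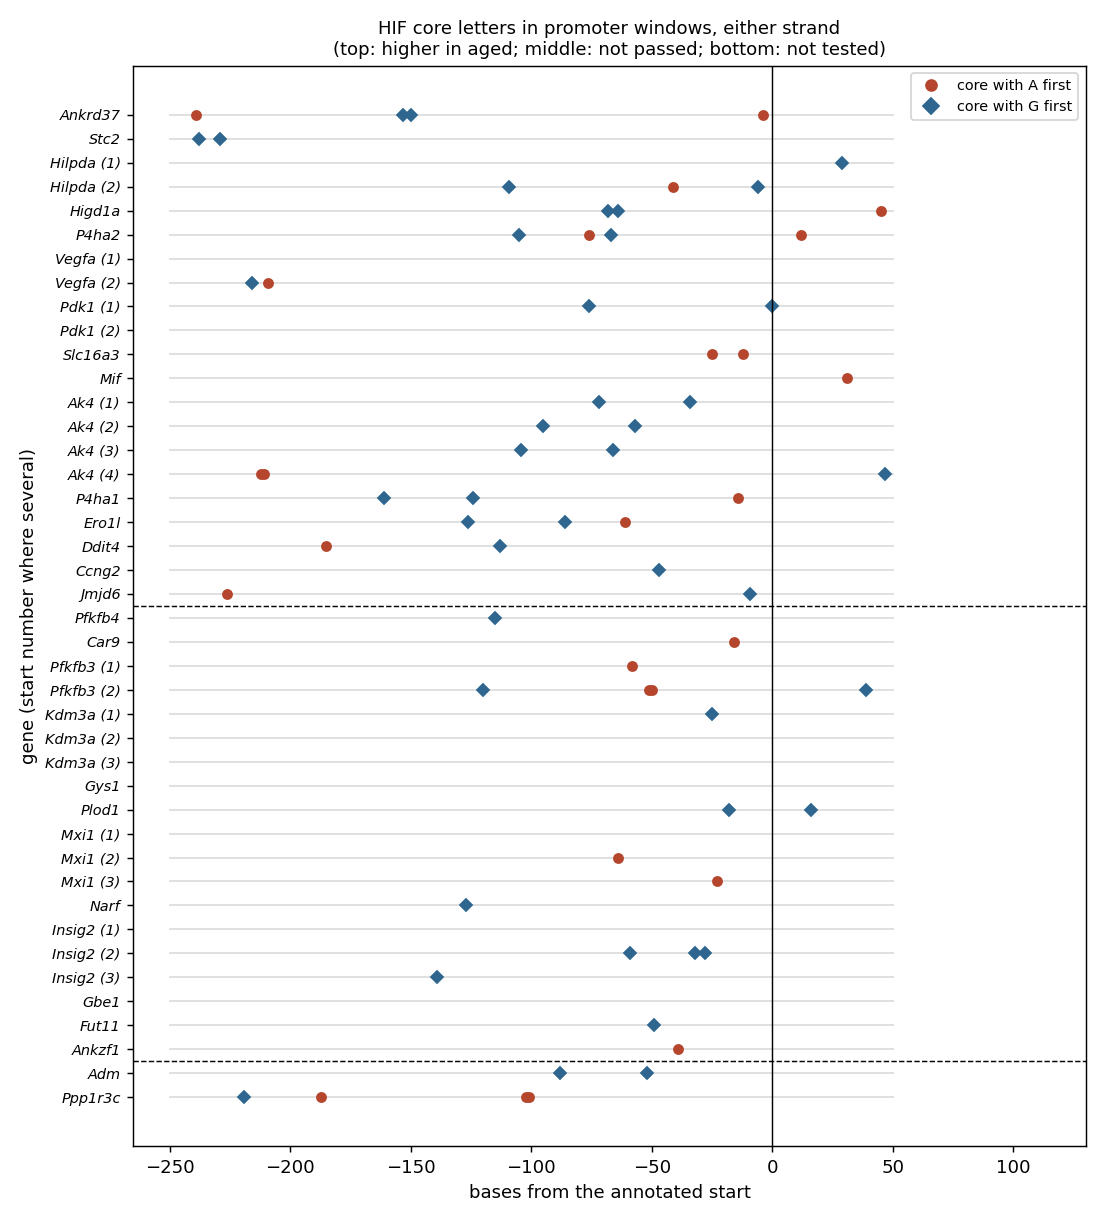
Position of each core in the promoter windows, in bases from the annotated start, with circles for cores that begin with A and diamonds for those that begin with G on the matching strand. Genes called higher in aged libraries stand above the first dashed line, genes that did not pass between the lines and untested genes below. Each of the 15 genes called higher has a core in at least 1 window. For Vegfa the cores are only in the second of its 2 windows, which lies inside the gene.

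The 3 secreted factors that could be tested all rose in aged cultures. Vegfa (chr17:46016993-46032369, GRCm38), the vascular growth factor, had 70.3, 92.9 and 40.3 CPM in aged libraries 1 to 3, against 10.3, 9.89 and 10.6 CPM in young libraries 1 to 3. Young libraries lay close together, and the lowest aged library was well above them, with a log2 change of 2.72 ± 0.33 (SE; edgeR adjusted p = 0.000289). Stc2 (chr11:31357307-31370074), a secreted glycoprotein of calcium and phosphate control, had 89.6, 109 and 71.1 CPM in aged libraries 1 to 3, against 3.29, 12.9 and 5.29 CPM in young libraries 1 to 3. Its groups did not overlap even though young library 2 stood above the other young ones, and its log2 change was 3.64 ± 0.46 (edgeR adjusted p = 0.000351). Mif (chr10:75859353-75860240), a cytokine that holds macrophages in place, had 3517, 3653 and 3100.5 CPM in aged libraries 1 to 3, against 771, 739 and 901 CPM in young libraries 1 to 3. It was the most abundant of the 33 genes and rose by 2.09 ± 0.12 on the log2 scale (SE; edgeR adjusted p = 1.99e-06), or by 1.04 after the length and GC correction described below. The annotation names 2 pseudogenes of Mif, so reads shared with them leave its counts uncertain. Adm, which encodes the vasodilator adrenomedullin, had 12.3, 7.14 and 0 CPM in aged libraries 1 to 3, against 0, 0 and 0 CPM in young libraries 1 to 3. Because too few libraries held counts, Adm did not pass the count filter and was not tested. With 3 counts over the young libraries taken as the lowest detectable level, its aged mean was at least 137-fold higher, although aged library 3 had 0 counts.

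Collagen hydroxylases were higher for 3 of the 4 genes. P4ha1 and P4ha2 encode the catalytic chains of prolyl 4-hydroxylase, which stabilises the collagen helix, and Plod1 and Plod2 encode lysyl hydroxylases that prepare collagen for crosslinking. P4ha2 (chr11:54100095-54131665) had 40.8, 63.8 and 36.3 CPM in aged libraries 1 to 3, against 9.54, 7.73 and 3.81 CPM in young libraries 1 to 3. Plod2 (chr9:92542223-92608428) had 100.5, 106 and 92.6 CPM in aged libraries 1 to 3, against 40.1, 30.4 and 37.9 CPM in young libraries 1 to 3. In neither gene did the groups overlap, and the log2 changes were 2.74 ± 0.41 and 1.46 ± 0.20 (SE; edgeR adjusted p = 0.000942 and 0.000626). P4ha1 (chr10:59323296-59373304) had 79.6, 45.4 and 62.2 CPM in aged libraries 1 to 3, against 23.1, 28.9 and 9.76 CPM in young libraries 1 to 3, with a log2 change of 1.60 ± 0.39 (edgeR adjusted p = 0.0143). Its call was lost without aged library 1 (log2 change 1.38, adjusted p = 0.0547). Plod1 had 14, 14.4 and 7.62 CPM in aged libraries 1 to 3, against 15.1, 7.65 and 2.08 CPM in young libraries 1 to 3, with overlapping groups, a wide young spread and a log2 change of 0.54 ± 0.67, which missed the threshold.

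Of the collagens that these enzymes modify, Col1a1, Col1a2 and Col3a1 were nearly silent, and values of the other listed collagens are not given here. In a list of 14 genes for collagens and their processing, 7 had enough counts to be tested. Of these, 1 rose and 1 fell, with a median log2 change of 0.28, against 11.2% and 8.14% of all tested genes called higher and lower. Col1a1, Col1a2 and Col3a1 averaged 0.0224, 0.0224 and 0 CPM in aged and 0, 0.351 and 0 CPM in young libraries. Plod3, the third lysyl hydroxylase gene, rose by 0.82 ± 0.25 on the log2 scale (edgeR adjusted p = 0.0434), with 11.7% of its exon length shared with another gene. That call was lost with library totals as the only scaling and on leaving out any library except aged library 3 (adjusted p up to 0.287). P4ha3, a further prolyl 4-hydroxylase chain, went the other way, with 0, 0 and 0 CPM in aged libraries 1 to 3, against 6.31, 11.3 and 1.58 CPM in young libraries 1 to 3 (edgeR adjusted p = 0.00511).

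Genes that steer carbon away from respiration and move acid out of the cell had positive changes in all 5 cases, of which 2 passed. Slc16a3 (chr11:120948480-120960868), the lactate exporter MCT4, had 706, 718 and 462 CPM in aged libraries 1 to 3, against 110.1, 141 and 86.7 CPM in young libraries 1 to 3. Pdk1 (chr2:71873224-71903858), the kinase that shuts off pyruvate dehydrogenase, had 59.0, 58.2 and 55.2 CPM in aged libraries 1 to 3, against 12.7, 7.04 and 8.69 CPM in young libraries 1 to 3. The groups were far apart in both genes, and the log2 changes were 2.48 ± 0.22 and 2.60 ± 0.31 (SE; edgeR adjusted p = 3.57e-05 and 0.000236). Pfkfb3 and Pfkfb4 encode enzymes that set fructose 2,6-bisphosphate, an activator of phosphofructokinase. Pfkfb3 had 25.1, 17.8 and 20.8 CPM in aged libraries 1 to 3, against 10.5, 3.58 and 10.3 CPM in young libraries 1 to 3. Pfkfb4 had 16.2, 11.3 and 9.72 CPM in aged libraries 1 to 3, against 3.18, 2.69 and 0.0508 CPM in young libraries 1 to 3. Neither overlapped between groups and neither passed, with edgeR adjusted p-values of 0.0700 and 0.0906, but both passed in DESeq2 (0.0314 and 0.0166) and in limma-voom (0.0279 and 0.0417). Car9, the membrane carbonic anhydrase used as a hypoxia marker in tumours, was low, at 4.11, 4.71 and 21.0 CPM in aged libraries 1 to 3, against 0.991, 5.94 and 2.85 CPM in young libraries 1 to 3. Aged library 3 alone stood out, the groups overlapped, and the log2 change of 1.60 ± 0.87 did not pass.

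Both genes of mitochondria and nucleotides rose. Higd1a (chr9:121848563-121858362), a small inner membrane protein of the respiratory chain, had 773, 901 and 649 CPM in aged libraries 1 to 3, against 121, 88.6 and 128 CPM in young libraries 1 to 3. Ak4 (chr4:101419277-101466995), a mitochondrial adenylate kinase, had 27.0, 25.5 and 21.3 CPM in aged libraries 1 to 3, against 3.55, 8.18 and 7.17 CPM in young libraries 1 to 3. Neither gene overlapped between groups, and the log2 changes were 2.78 ± 0.19 and 1.96 ± 0.44 (SE; edgeR adjusted p = 5.75e-06 and 0.00960). A predicted gene on the opposite strand covers 22.5% of the exon length of Higd1a, and the strand setting of the counting is not given in the sources used here.

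In the lipid pair, Hilpda and Insig2 differed. Hilpda (chr6:29272488-29275446), a lipid droplet protein that restrains the lipase ATGL, had 1982, 2135 and 1323 CPM in aged libraries 1 to 3, against 175, 123 and 159.6 CPM in young libraries 1 to 3. Every aged library was several times any young library, for a log2 change of 3.57 ± 0.21 (SE; edgeR adjusted p = 1.99e-06). Insig2, which retains the sterol sensor complex in the endoplasmic reticulum, had 16.8, 53.1 and 42.0 CPM in aged libraries 1 to 3, against 35.6, 35.8 and 37.9 CPM in young libraries 1 to 3. The aged libraries spread on both sides of the young ones, and the log2 change of 0.03 ± 0.37 did not pass.

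Of 3 glycogen genes that could be tested, the row named Pgm2 passed. This symbol stands for a phosphoglucomutase, which links the phosphates of glucose used in glycogen and in glycolysis, and the row had 306, 244 and 298 CPM in aged libraries 1 to 3, against 109.5, 123 and 110.1 CPM in young libraries 1 to 3 (log2 change 1.31 ± 0.16, edgeR adjusted p = 0.000250). RefSeq lists Pgm2 as a former name of the gene now called Pgm1, and Pgm1 as a former name of Pgm2, so the row may stand for either locus. The row named Pgm1 had a log2 change of -0.84 ± 0.35, which did not pass (edgeR adjusted p = 0.127). Gys1, muscle-type glycogen synthase, had 23.1, 41.5 and 25.0 CPM in aged libraries 1 to 3, against 6.31, 23.6 and 17.5 CPM in young libraries 1 to 3. Gbe1, the branching enzyme, had 4.70, 3.50 and 1.27 CPM in aged libraries 1 to 3, against 3.02, 5.62 and 0.712 CPM in young libraries 1 to 3. The groups of both overlapped, and their log2 changes of 0.92 ± 0.47 and 0.02 ± 1.03 did not pass. Ppp1r3c, which targets a phosphatase to glycogen, had 0 counts in all 6 libraries.

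Among genes of the endoplasmic reticulum and of protein quality, only Ero1l passed. Ero1l (chr14:45283087-45318771), the oxidase that renews disulfide bonds during protein folding, had 2260.0, 2198 and 1742 CPM in aged libraries 1 to 3, against 745, 730.4 and 703 CPM in young libraries 1 to 3. Its groups did not overlap, with a log2 change of 1.51 ± 0.13 (SE; edgeR adjusted p = 2.33e-05). Fut11, annotated as a fucosyltransferase, had 20.2, 26.9 and 8.19 CPM in aged libraries 1 to 3, against 32.4, 21.8 and 17.7 CPM in young libraries 1 to 3. Ankzf1, which acts in ribosome-associated quality control, had 4.90, 7.95 and 6.54 CPM in aged libraries 1 to 3, against 6.05, 12.6 and 6.61 CPM in young libraries 1 to 3. Both had lower means in aged libraries, but the groups overlapped and the log2 changes of -0.38 ± 0.45 and -0.38 ± 0.59 did not pass.

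Growth and stress regulators were higher for 3 of the 4 genes. Ndrg1 (chr15:66929318-66969640), a stress-induced differentiation gene, had 123, 137 and 80.6 CPM in aged libraries 1 to 3, against 24.5, 22.0 and 7.37 CPM in young libraries 1 to 3. Ddit4 (chr10:59949669-59951834), also called REDD1, which restrains mTORC1, had 187, 154 and 106 CPM in aged libraries 1 to 3, against 63.2, 77.7 and 55.9 CPM in young libraries 1 to 3. The log2 changes were 2.66 ± 0.40 and 1.19 ± 0.23 (SE; edgeR adjusted p = 0.00103 and 0.00478), with no overlap between groups. Ccng2 (chr5:93267257-93276231), an atypical cyclin that slows the cell cycle, had 58.8, 62.2 and 36.2 CPM in aged libraries 1 to 3, against 20.3, 33.1 and 22.4 CPM in young libraries 1 to 3. Aged library 3 was nearest to the young libraries, and the log2 change was 1.05 ± 0.30 (edgeR adjusted p = 0.0333). That call was lost without aged library 1, aged library 2, young library 1 or young library 3, with adjusted p-values of 0.0961, 0.119, 0.124 and 0.0781. Mxi1, an antagonist of MYC, had 31.1, 53.5 and 26.0 CPM in aged libraries 1 to 3, against 18.8, 30.4 and 28.9 CPM in young libraries 1 to 3, with overlapping groups and a log2 change of 0.50 ± 0.34, which missed the threshold.

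Of 5 genes that include nuclear oxygenases and other nuclear factors, 2 passed. Ankrd37 (chr8:45996902-46005707), an ankyrin repeat protein, had 159, 159.5 and 78.1 CPM in aged libraries 1 to 3, against 10.5, 7.69 and 12.5 CPM in young libraries 1 to 3. It had the largest fitted change of the 31 genes, 3.69 ± 0.33 on the log2 scale (SE; edgeR adjusted p = 3.41e-05). Lrp2bp on the opposite strand covers 22.7% of its exon length, and the Lrp2bp row held at most 3 counts in any library. Jmjd6 (chr11:116837432-116843449), an iron-dependent oxygenase that hydroxylates lysines of splicing factors, had 108, 153 and 121 CPM in aged libraries 1 to 3, against 74.2, 74.1 and 90.0 CPM in young libraries 1 to 3. Its log2 change of 0.68 ± 0.19 passed (edgeR adjusted p = 0.0299) but did not pass without aged library 2, aged library 3, young library 1 or young library 2, with adjusted p-values of 0.137, 0.0518, 0.123 and 0.0891. Kdm3a, a histone H3 lysine 9 demethylase, had 33.9, 10.8 and 8.13 CPM in aged libraries 1 to 3, against 7.46, 11.7 and 6.56 CPM in young libraries 1 to 3. Aged library 1 stood apart from the other 2 aged libraries, which lay within the young range, and the log2 change of 1.04 ± 0.58 did not pass. Narf, a nuclear prelamin A binding protein, had 12.5, 5.93 and 16.1 CPM in aged libraries 1 to 3, against 18.8, 11.2 and 2.80 CPM in young libraries 1 to 3. Zfp395, a zinc finger protein, had 2.32, 1.55 and 0.318 CPM in aged libraries 1 to 3, against 1.20, 2.81 and 1.32 CPM in young libraries 1 to 3. Both overlapped between groups, and neither the log2 change of 0.07 ± 0.67 nor that of -0.35 ± 1.20 passed.

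**Figure D3:**
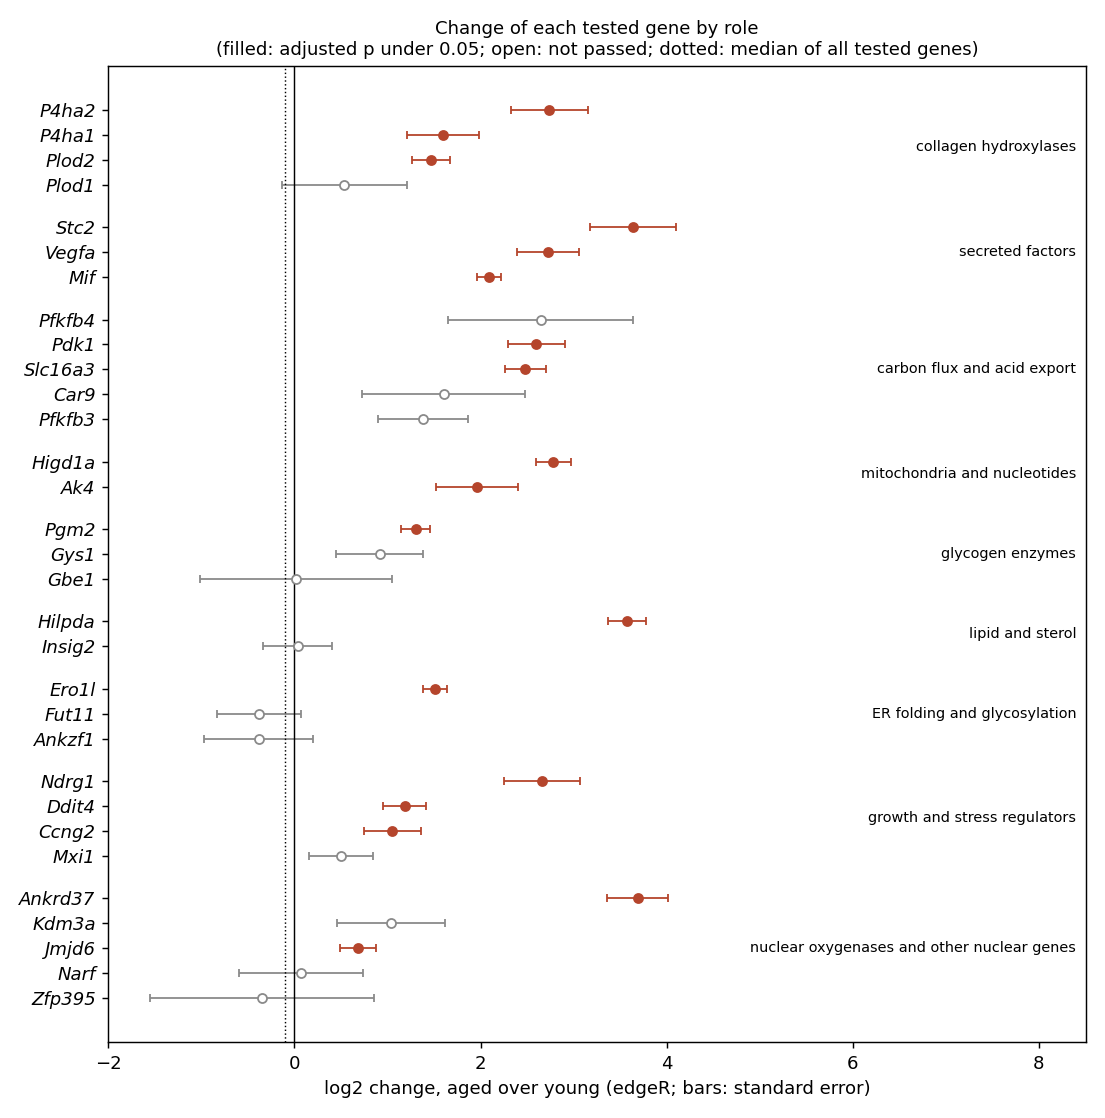
Log2 change of each tested gene, aged over young, grouped by role, with bars for the standard error. Filled points passed at an adjusted p under 0.05, open points did not, and the dotted line marks the median of all tested genes at -0.10. The 18 filled points lie right of 0, and 3 open points have values below 0.

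Per kilobase of the longest transcript, Mif was the most abundant of the genes in both groups, at 5706 CPM per kb in aged and 1339.7 in young libraries. Hilpda came next in aged libraries at 1847 CPM per kb, ahead of Ero1l at 468 with no overlap of library values. Higd1a followed at 347 CPM per kb in aged libraries. It was below Ero1l within each of them, at 346, 404 and 291 against 512, 498 and 394 in aged libraries 1 to 3. In young libraries Hilpda and Ero1l, at 155 and 164 CPM per kb, overlapped and could not be ordered. Slc16a3 and Ankrd37, the next in aged libraries at 145 and 142 CPM per kb, also overlapped there.

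Across all genes the change followed transcript length, and this bears on how the hypoxia-induced genes are read. In the shortest quintile of tested genes the median log2 change was 0.49 and 29.5% were called higher, while in the longest quintile the median was -0.48 and 2.60% were called higher. Of 30 hypoxia-induced genes with a transcript length, 15 fell in the fourth quintile, of 3754 to 5090 bases, where 5.11% of genes were called higher. There, 8 of the 15 were called higher, and 14 lay above that quintile's median of -0.35. The short genes Mif, Hilpda, Ankrd37 and Ddit4 all rose, in the quintile where 29.5% did. With offsets for length and GC content, 19 of the 31 genes were called higher, the 18 and Pfkfb3, against 11.6% of all genes. Under those offsets the change of Mif went down to 1.04 and that of Hilpda to 3.05, while Stc2 and Pdk1 went up to 4.14 and 3.20. Fut11 and Zfp395 turned from negative to positive values, neither of which passed.

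**Figure D4:**
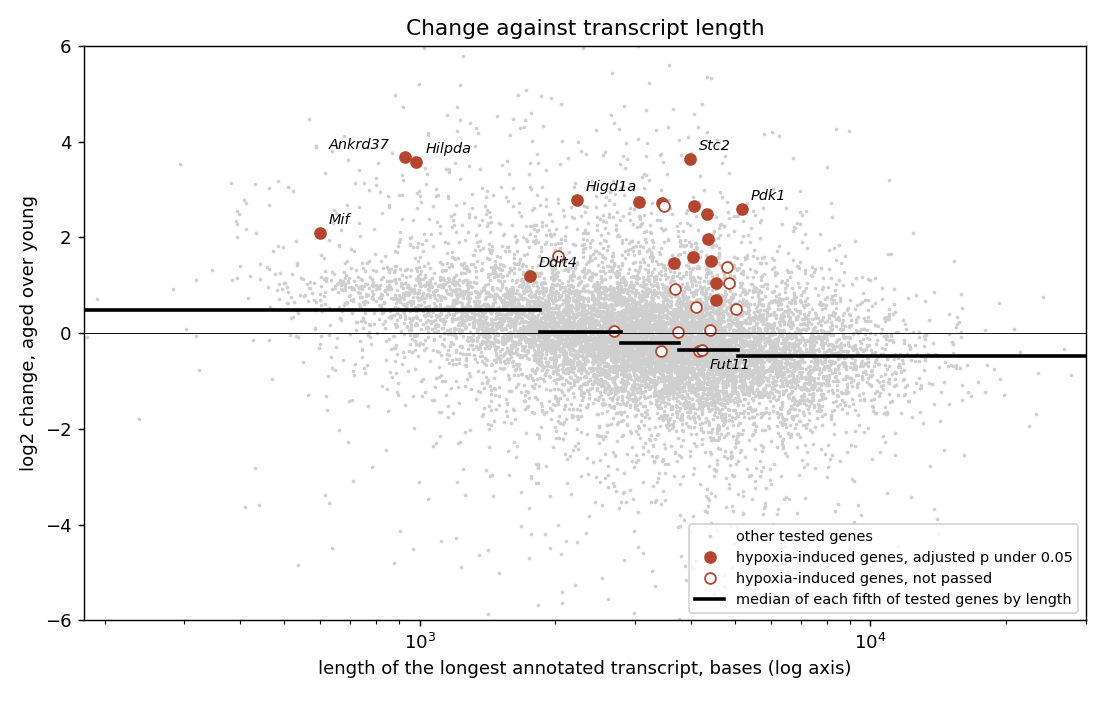
Log2 change, aged over young, against the length of the longest transcript (log axis), with hypoxia-induced genes as red circles (filled where the adjusted p was under 0.05), other tested genes in grey and black bars at the median of each quintile by length. Outside the axes lie 218 of 11356 genes. The bars step down from 0.49 to -0.48, and most red circles lie above the bar of their quintile.

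Directions depend on how libraries are scaled. With library totals as the only scaling, the median log2 change of all tested genes was -0.52 in place of -0.10, and 15 of the 31 hypoxia-induced genes were called higher and 0 lower, against 6.08% and 20.2% of all genes. The calls lost there were P4ha1, Ccng2 and Jmjd6, with log2 changes of 1.18, 0.62 and 0.26 and adjusted p-values of 0.0536, 0.161 and 0.322. Narf, Insig2 and Gbe1 turned from positive to negative values there, none of which passed. The other 15 genes were called higher under each of the 14 alternatives run.

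**Figure D5:**
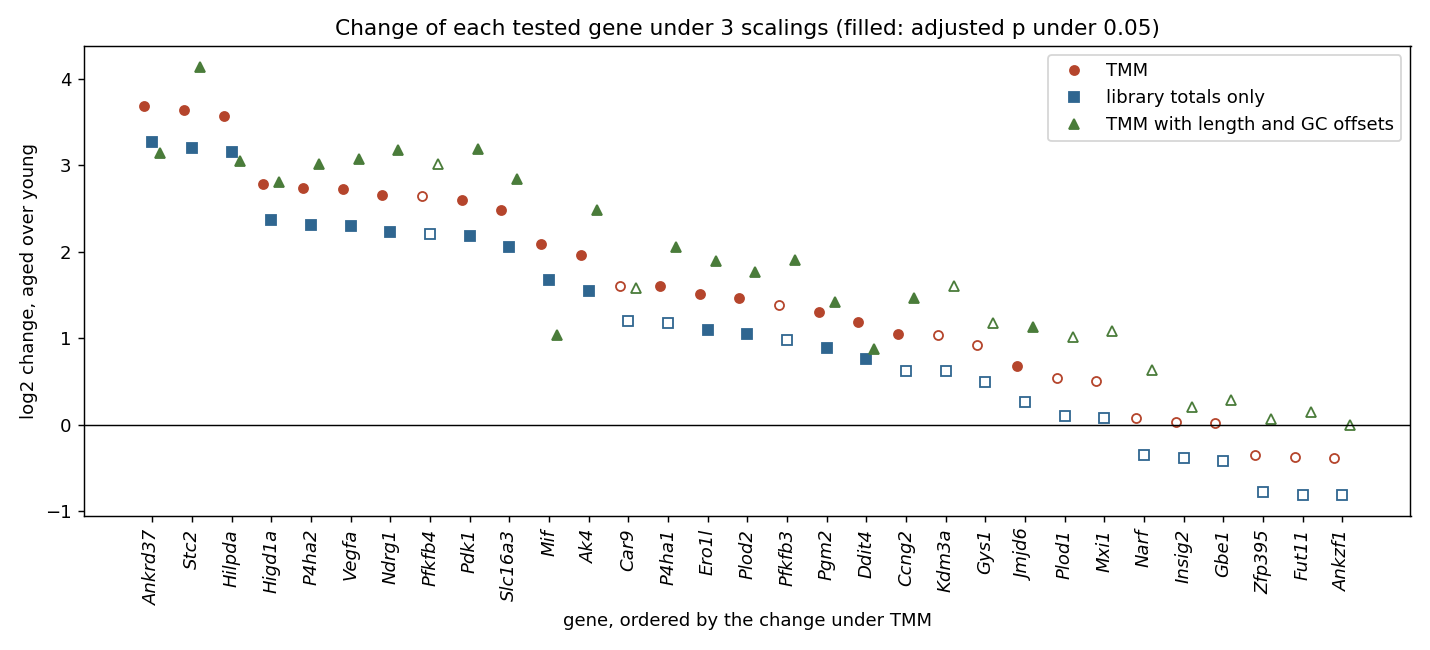
Log2 change of each tested gene, aged over young, under TMM scaling, library totals only, and TMM with length and GC offsets, with filled symbols for an adjusted p under 0.05. Library totals lower every value by a like amount, and 15 genes remained filled there against 18 under TMM and 19 with the offsets.

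Genes that sense or answer to oxygen and are not among the 33 were counted from lists chosen with earlier results known. In the list of HIF subunits and oxygen sensors, 5 of 11 genes rose and 1 fell, with a median log2 change of 0.04. Over all tested genes, 11.2% were called higher and 8.14% lower. The prolyl hydroxylase genes Egln3 and Egln1, which are themselves HIF targets, stood at 672 ± 126 CPM in aged and 28.7 ± 8.69 CPM in young libraries and at 309 ± 81.7 CPM in aged and 50.8 ± 3.16 CPM in young libraries (SD, n = 3 each). Their log2 changes were 4.55 ± 0.25 and 2.60 ± 0.21 (SE; edgeR adjusted p = 1.65e-06 and 1.60e-05). Cited2, which competes with HIF for its coactivator, rose by 0.79 ± 0.16 on that scale. Hif1a and Vhl, named after their values were seen, rose by 0.62 ± 0.17 and 1.12 ± 0.34 (edgeR adjusted p = 0.0278 and 0.0378). Arnt2, a relative of ARNT found mainly in the nervous system and also named after its value was seen, fell to 0.599 ± 0.423 CPM in aged libraries, against 7.78 ± 6.10 CPM in young libraries (edgeR adjusted p = 0.0386). Arnt, the partner itself, had 0.861, 6.67 and 5.46 CPM in aged libraries 1 to 3, against 16.4, 16.5 and 11.9 CPM in young libraries 1 to 3. Epas1, which encodes HIF-2 alpha, had 6.03, 5.99 and 1.21 CPM in aged libraries 1 to 3, against 10.8, 10.1 and 10.2 CPM in young libraries 1 to 3. In both genes each aged library lay below each young one, but neither passed (edgeR adjusted p = 0.0986 and 0.252). Of the 11 genes, 3 had that order and 5 the opposite one, against 18.8% and 19.3% of all tested genes. The calls of Hif1a, Vhl and Arnt2 were kept under 8, 9 and 7 of the 14 alternatives. Leaving out aged library 1, aged library 2 or young library 2 ended each of them, with adjusted p-values of up to 0.406 for Hif1a, 0.160 for Vhl and 0.218 for Arnt2 over the alternatives that ended the call. With library totals as the only scaling, that list had 2 genes higher and 2 lower, against 6.08% and 20.2% of all genes.

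Core glycolysis had 9 of 15 genes higher and 0 lower in edgeR, with 0 lower at an unadjusted p under 0.05 and in DESeq2 and limma-voom, and a median log2 change of 0.88. Tpi1, Aldoa and Gapdh, with the smallest p-values, rose by 2.66 ± 0.14, 1.72 ± 0.13 and 1.91 ± 0.15 on the log2 scale. Of 30 other genes known to be induced by low oxygen, 28 could be tested, 16 rose and 1 fell, with a median log2 change of 1.72, also with Mgarp, which had 0 counts in young libraries, at its bound. Tpi1, Egln1 and Egln3 are also in this list. Fam162a and Bnip3, which act in mitochondrial death and mitophagy, rose by 3.13 ± 0.17 and 3.04 ± 0.17, with 19.8% and 22.2% of their exon length shared with another gene. The gene that fell was Bhlhe40, a transcriptional repressor induced by low oxygen, at 53.9 ± 9.13 CPM in aged and 107 ± 30.0 CPM in young libraries (SD, n = 3 each; log2 change -0.99 ± 0.25, edgeR adjusted p = 0.0167), named after its value was seen. That call was kept under 9 of the 14 alternatives, and it was lost with the length and GC offsets and without aged library 2, aged library 3, young library 1 or young library 2 (adjusted p up to 0.0797).

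Beside these rises, the summed markers of microglia and macrophages and of dendritic cells, given above, were also higher in each aged library than in any young one. Pecam1 had 162, 163 and 126 CPM in aged libraries 1 to 3, against 91.6, 102 and 66.6 CPM in young libraries 1 to 3. The NK cell and ILC1 list summed to 9.84 to 23.4 CPM in aged and 2.24 to 4.68 CPM in young libraries and consisted of Prf1 alone, and the B cell list, Cd79b alone, to 33.2 to 58.3 CPM in aged and 13.7 to 22.9 CPM in young libraries. T cell markers summed to 6.76 to 14.7 CPM in aged and 6.78 to 13.0 CPM in young libraries, and astrocyte and neuron markers to 1.40 to 5.25 CPM in aged and 0.305 to 1.36 CPM in young libraries. The part of such cells in the changes of the hypoxia-induced genes was not tested.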

How the data were processed

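Raw counts were deposited as 1 table with a row for each gene symbol and a column for each library, made from single-end 75 bp reads, per the series' design text. The submitters' processing notes list STAR 2.5.3a, DESeq2 1.1, Cufflinks 2.0, bcl2fastq 2.20.0.422, FastQC 1.0.0 and, for the genome, mm10. The counting software is not given in the sources used here, nor are its annotation and use of strand, and reads of overlapping genes cannot be told apart by strand.

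The test was run in edgeR 4.0.16 (R 4.3.3) after filterByExpr (minimum count 10, minimum total 15), which kept 11805 genes (48.3%), then TMM scaling, glmQLFit and glmQLFTest for aged over young. Adjusted p-values are Benjamini-Hochberg values over all genes tested, with a threshold of 0.05, and the SE is the log2 change divided by the root of F. The alternatives were RLE size factors, library totals, DESeq2 1.42.0, limma-voom 3.58.1, other filters, the replicate block, length and GC offsets, and leaving out each library. The offsets come from a smooth fit (mgcv 1.9.3) of each library's deviation on transcript length and GC content, known for 96.2% of tested genes, and by their construction remove a length trend that differs between groups. Gene models are from GENCODE vM21 (GRCm38, called mm10), matched by symbol. Rows with symbols turned into dates (27 rows, 0.153% of counts) stayed in the fit. Libraries of 1 group differed by more than counting noise (chi-square per degree of freedom 34.5 to 86.3). The 33 genes and the lists were chosen with earlier results of these data known. All 33 are named. From each other list up to 3 called genes with the smallest p are named. Hif1a, Vhl, Bhlhe40, Arnt2, Arnt, Epas1, Mgarp, the Pgm1 and Lrp2bp rows and the collagens were added after their values were seen. The floor of 3 counts covers counting error only. The edgeR fit was tested on simulated data.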

Additional observations from a re-analysis of the deposited data

How the results depend on the processing

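The count of hypoxia-induced genes called higher ran from 15 with library totals as the only scaling to 20 in DESeq2 and limma-voom, and from 16 to 18 with 1 library left out, where Adm counts among the 18 found without aged library 3, beside 0 called lower under each of the 14 alternatives. Over all genes the counts were 718 higher and 2380 lower with library totals as the only scaling, against 1325 and 961 under TMM. Leaving out 1 library gave 915 to 1344 genes higher and 399 to 849 lower. Without young library 1 and without young library 2 the lower counts were 399 and 480, and the cause was not tested. With the replicate block 18 hypoxia-induced genes were called higher, and over all genes 1208 higher and 800 lower. Libraries with the same number deviated together with correlations of 0.00883 to 0.0414, and 5 of 6 libraries correlated best with their own number. These correlations are small and no label says that the numbers pair libraries, so the main fit did not pair them. Whether the numbers mark pairs cannot be told from these values. In simulated counts with the spread of these libraries, edgeR called 13.1% of the 2-fold and 50% of the 4-fold changes that were put in, so genes that did not pass may still differ. The simulation changed 200 of 11805 genes, fewer than were called in the data. The adjusted p depends on that number, so the recovered shares need not hold for the data.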

Other observations

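Several of the hypoxia-induced genes, such as Ddit4, Stc2 and Vegfa, can also be induced by stress of the endoplasmic reticulum or by amino acid shortage. Of 13 genes of those responses, 6 rose and 1 fell, with a median log2 change of 0.69. The shares over all tested genes were 11.2% higher and 8.14% lower. Sdf2l1, an endoplasmic reticulum chaperone partner, stood at 1036 ± 156 CPM in aged and 370.2 ± 42.5 CPM in young libraries, and Atf4, the central transcription factor of amino acid stress, at 639 ± 71.5 CPM in aged and 312 ± 22.1 CPM in young libraries (SD, n = 3 each). Sesn2, a stress-induced inhibitor of mTORC1, fell to 20.6 ± 4.37 CPM in aged libraries, against 68.2 ± 17.6 CPM in young libraries. With library totals as the only scaling, 2 genes of this list were higher and 3 lower, against 6.08% and 20.2% of all genes.

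Ddit4 and Ccng2 also respond to glucocorticoids or FOXO factors. In a list of 12 genes with those inducers, 1 rose and 4 fell, with a median log2 change of -0.31. Of all tested genes, 11.2% were called higher and 8.14% lower. Pik3ip1, an inhibitor of PI3 kinase, rose by 1.56 ± 0.29 on the log2 scale (SE; edgeR adjusted p = 0.00348). Txnip, which restrains glucose uptake, and Irs2, an insulin receptor substrate, fell by 1.22 and 0.82 on that scale (edgeR adjusted p = 0.00643 and 0.00983). With the length and GC offsets 1 gene of the list was called lower, and the share of all genes called lower there is not given here. The call of Irs2 was lost there and without young library 1 (adjusted p up to 0.255).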
